A study of Mus musculus with 6 samples.

Results

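Integrins are adhesion receptors made of 1 alpha and 1 beta chain, and 10 chain genes known from leukocytes were read from RNA-seq of mouse thymocytes. The genes were taken by symbol (Itgal, Itgb2, Itga4, Itgb7, Itgb1, Itgae, Itgav, Itgb3, Itga6 and Itga5) from a table of 55536 genes. All 10 were found and all 10 were among the 18690 genes with enough counts to be tested. Thymocytes are the developing T cells of the thymus. Libraries came from 6 untreated mice in steady state: 3 wildtype (Il3ra+/+) and 3 labelled as lacking the interleukin-3 receptor alpha chain (Il3ra-/-), 1 library per mouse. The sources used here do not give the strain, age or sex of the mice, or which part of Il3ra the allele lacks. The series title is about regulatory T cells, their mechanobiology and their exit from tissue, and the comparison asks how thymocytes of both genotypes differ.

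A beta chain is shared by several alpha chains, and an alpha chain needs a beta partner to reach the cell surface. The beta 2 chain with the alpha L chain forms LFA-1, the receptor of T cells for ICAM molecules on other cells. The alpha 4 chain pairs with beta 1 to bind VCAM-1 and fibronectin, or with beta 7 to bind MAdCAM-1 on vessels of the gut, and alpha E with beta 7 binds E-cadherin on epithelium. In the thymus such receptors hold thymocytes to stromal cells and matrix while they mature and move. RNA levels of the chains do not measure the receptors on the cell surface or their activation.

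Total counts were 55747682 to 82684219 per library, and the lowest count of any of the 10 chains in any library was 559 (Itgae in wildtype replicate 2). Values are CPM (counts scaled to a common library size with the TMM factors of edgeR), as mean ± SD over 3 libraries, and folds are labelled knockout over wildtype. Il3ra, the targeted gene, had 465, 376 and 399 counts in wildtype replicates 1 to 3 and 481, 673 and 514 in those labelled knockout, so it does not check the labels. Cd4 and Cd8a, the coreceptors that define most thymocytes, were at 941 to 1313 and 1408 to 1756 CPM in the 6 libraries. Replicate 1 of each genotype had 1477 and 2118 CPM of Xist, a transcript of the inactive X chromosome, against at most 0.873 CPM in the other 4 libraries. The Y chromosome genes Ddx3y, Eif2s3y, Kdm5d and Uty had at most 0.0826 CPM in replicate 1 of each genotype and 24.8 to 181 CPM in the other 4. By these genes replicate 1 of each genotype was female and the other 4 libraries were male. Values without replicate 1 of each genotype therefore compare male libraries alone. Labelled knockout replicate 3 had 420.4 CPM over 7 neutrophil genes, against 33.3 to 105 CPM in the others. For many chains and calls that moved with these libraries, values without them are given beside them or in the closing sections.

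None of the 10 chains passed the test between genotypes (quasi-likelihood test of edgeR, with an adjusted p under 0.05 after Benjamini and Hochberg), at which 0.091% of all tested genes passed. At an unadjusted p under 0.05 there were 3 chains, all lower in the labelled knockout (Itgb2, Itgal and Itgb7), where 6.6% of all tested genes were lower. In the same 3 chains the genotypes did not overlap, which was so in that direction for 9.38% of all tested genes and for 12.8% of the 9209 genes with a mean of at least 10 CPM. Wildtype replicate 1 mattered to this number: without it 5 chains were lower with no overlap, beside 19.1% of all tested genes. Without replicate 1 of each genotype 6 were lower and 1 higher, beside 29.0% and 31.7% of all tested genes. The median log2 fold change of the 10 chains was -0.12 (-0.17 to -0.06 with 1 library left out), beside 0.01 over all tested genes. DESeq2's Wald test called Itgal and Itgb2 lower (Benjamini-Hochberg adjusted p = 0.0217 and 0.00667). Its background was 4.32% of the 13973 genes it gave an adjusted p, or 1.57% counting lower genes alone. The 2 chains that DESeq2 called are the 2 chains of LFA-1.

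**Figure D1:**
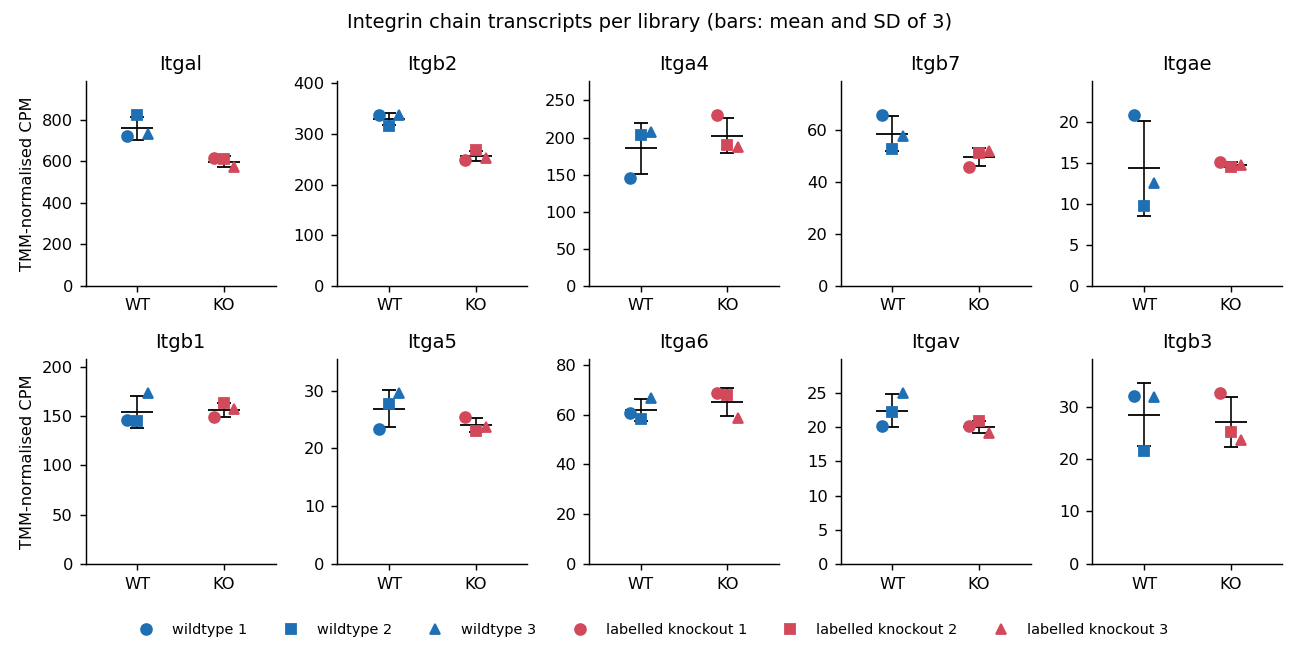
TMM-normalised CPM (vertical axis, from 0) of the 10 chains in 3 wildtype (WT) and 3 labelled knockout (KO) libraries. Points are libraries and black bars are mean and SD. Itgal, Itgb2 and Itgb7 are the panels in which the genotypes do not overlap, and Itgae has its widest spread in wildtype, from 9.67 to 20.8 CPM.

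Itgal (ENSMUSG00000030830, chromosome 7, 127296260 to 127335138, plus strand) encodes the alpha L chain, which carries the ligand-binding domain of LFA-1. Its level was 722, 821 and 730 CPM in wildtype replicates 1 to 3 and 613, 612 and 569.7 CPM in the labelled knockout. Every library labelled knockout lay below every wildtype library, and wildtype replicate 2 was the highest of all. The means were 758 ± 55.1 and 598 ± 24.7 CPM, a fold of 0.789 (95% interval 0.674 to 0.924). This did not pass over all genes (edgeR, adjusted p = 0.196).

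Itgb2 (ENSMUSG00000000290, chromosome 10, 77530252 to 77565708, plus strand) encodes the beta 2 chain, which is found on leukocytes. It had 337, 316 and 337 CPM in wildtype and 248, 267 and 253 CPM in the labelled knockout. The gap between the lowest wildtype and the highest labelled knockout library was wider than the range within either genotype. The mean of 329.9 ± 12.04 CPM in wildtype stood against 256 ± 10.2 CPM, a fold of 0.776 (95% interval 0.672 to 0.896), which again did not pass (edgeR, adjusted p = 0.151). With 1 library left out at a time, the log2 fold change of Itgb2 stayed between -0.39 and -0.34 and that of Itgal between -0.38 and -0.28, and neither passed in these 6 fits (edgeR, adjusted p = 0.148 to 0.692).

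Because this is RNA of a whole thymocyte sample, fewer cells that carry a transcript and less of it per cell cannot be told apart. Beta 2 is also made by macrophages, dendritic cells, B cells and neutrophils. Their marker sums overlapped between the genotypes, and none of their genes had 0 counts in all libraries. The 8 macrophage genes summed to 45.1 to 67.6 CPM in wildtype and 38.0 to 78.1 in the labelled knockout, and the 8 dendritic cell genes to 114 to 122 and 78.9 to 157 CPM. The 7 B cell genes summed to 41.2 to 48.4 and 28.4 to 56.8 CPM. Without labelled knockout replicate 3, the library rich in neutrophil genes, the log2 fold change of Itgb2 was -0.36, against -0.37 with it. Of 5 groups of T cell lineage and cell cycle genes, the sums of 4 did not overlap between the genotypes. The 9 early thymocyte genes, whose sums did overlap, had 376 to 421 CPM in wildtype and 419 to 462 in the labelled knockout, with 8 of the 9 fitted higher. The sum of 8 double-positive genes, which mark the main stage of thymocyte development, was 9871 to 11186 CPM in wildtype and 8868 to 9410 in the labelled knockout, with 5 of the 8 genes lower without overlap (9.38% of all tested genes were, and 12.8% of those with a mean of at least 10 CPM). That of 8 mature thymocyte genes was 1182 to 1283 and 936 to 1081 CPM, with 3 of the 8 genes lower without overlap. The 7 gamma delta T cell genes summed to 229 to 296 and 324 to 388 CPM, with 6 higher without overlap. The 10 cell cycle genes summed to 2108 to 2735 and 2767 to 4002 CPM, with 9 higher without overlap (10.9% of all tested genes were). None of these genes passed edgeR's test over all genes. The part of these groups in the levels of Itgal and Itgb2 was not tested.

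Beta 2 has 3 other alpha partners, which are typical of myeloid cells. Per kilobase of exon (RPKM), Itgal made up 95.6% to 98.4% of the summed RNA of the 4 partners in each library. Itgam, the alpha chain of the complement receptor Mac-1, was at 0.467 to 0.832 RPKM. Itgax, the alpha X chain used as a dendritic cell marker, was at 0.870 to 2.56 RPKM, and Itgad, the alpha D chain, at 0.211 to 0.647 RPKM. Itgax had 5.82, 5.55 and 5.90 CPM in wildtype and 4.18, 8.997 and 12.3 CPM in the labelled knockout, so its spread lay among the latter. In labelled knockout replicates 1 to 3 the macrophage sum was 38.0, 66.7 and 78.1 CPM. The dendritic cell sum was 78.9, 128 and 157 CPM and the B cell sum 28.4, 48.9 and 56.8 CPM in the same libraries. All 3 sums had the order of Itgax there. In wildtype the macrophage sum was 67.6, 45.1 and 47.0 CPM, while Itgax was nearly level. The part of these cells in the level of Itgax was not tested. Itgad had 1.18 ± 0.229 and 2.14 ± 0.911 CPM and Itgam 2.83 ± 0.404 and 3.16 ± 0.936 CPM, with none past the test (edgeR, adjusted p = 0.277 for Itgad, 0.454 for Itgax and 0.804 for Itgam). Without replicate 1 of each genotype Itgad and Itgax were both called higher (edgeR, adjusted p = 0.0370 and 0.0368), with log2 fold changes of 1.32 and 0.89. In that fit 3.98% of all 19127 tested genes passed, and 2.06% were higher.

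Alpha 4 and its partner chains form some of the integrins by which T cells enter tissue. Their upstream sequences are shown because the RNA of these partners is compared below. RefSeq promoters on GRCm38.p6 were at hand for 5 of the 10 chains (Itga4, Itgb7, Itgb1, Itgav and Itga5), and the 250 bases before the annotated start are given for the 3 partners, 5′ to 3′ on the strand of the gene. Capitals mark matches to GGAA, the core that ETS factors bind, and to TGTGGT, the core that RUNX factors bind, on either strand, so that the complements read TTCC and ACCACA. Itga4 lies at chr2:79255176-79255425 (plus), Itgb7 at chr15:102231936-102232185 (minus) and Itgb1 at chr8:128685404-128685653 (plus).
Itga4: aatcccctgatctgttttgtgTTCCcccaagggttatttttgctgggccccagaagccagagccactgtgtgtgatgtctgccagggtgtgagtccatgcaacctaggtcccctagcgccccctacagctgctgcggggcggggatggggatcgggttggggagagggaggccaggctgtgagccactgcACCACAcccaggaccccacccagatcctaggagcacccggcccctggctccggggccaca
Itgb7: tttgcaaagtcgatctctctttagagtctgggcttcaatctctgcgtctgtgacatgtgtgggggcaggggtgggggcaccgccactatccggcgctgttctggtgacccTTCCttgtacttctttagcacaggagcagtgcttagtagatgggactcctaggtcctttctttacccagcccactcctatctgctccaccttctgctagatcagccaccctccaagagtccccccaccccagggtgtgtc
Itgb1: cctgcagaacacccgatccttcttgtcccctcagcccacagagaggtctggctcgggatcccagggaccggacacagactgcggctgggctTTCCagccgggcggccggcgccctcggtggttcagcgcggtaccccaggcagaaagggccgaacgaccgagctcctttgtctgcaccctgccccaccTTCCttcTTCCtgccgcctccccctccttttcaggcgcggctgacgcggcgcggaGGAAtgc
GGAA was present 1 time before Itga4, 1 time before Itgb7 and 4 times before Itgb1, and 93.4% of 32817 mouse promoters of this length held it. TGTGGT was found in Itga4, and in none of the other 4 chains with a promoter at hand, beside 14.0% of all promoters. A match is a description of the letters and not a binding site.

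Itga4 (ENSMUSG00000027009, chromosome 2, 79255426 to 79333123, plus strand), the alpha 4 chain, had 146, 204 and 207 CPM in wildtype and 230.2, 191 and 187 CPM in the labelled knockout. The genotypes overlapped, with replicate 1 the lowest library in wildtype and the highest in the labelled knockout. The means were 185 ± 34.2 and 203 ± 23.9 CPM, a fold of 1.09 (95% interval 0.881 to 1.35; edgeR, adjusted p = 0.714). Without replicate 1 of each genotype its log2 fold change turned from 0.13 to -0.12 (edgeR, adjusted p = 0.444). Exons of Cerkl on the other strand overlap 8.04% of the exon bases of Itga4, and Cerkl had a mean of 1.16 CPM.

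Itgb7 (ENSMUSG00000001281, chromosome 15, 102215995 to 102231944, minus strand), the beta 7 chain of gut-homing lymphocytes, had 65.6, 52.5 and 57.4 CPM in wildtype. In the labelled knockout it had 45.6, 51.2 and 51.6 CPM. The groups did not overlap, but wildtype replicate 2 and labelled knockout replicate 3 differed by less than the SD of either group. The means were 58.5 ± 6.62 and 49.5 ± 3.34 CPM, a fold of 0.846 (95% interval 0.719 to 0.996), and the test was not passed (edgeR, adjusted p = 0.332). The log2 fold change shrank from -0.24 to -0.10 without replicate 1 of each genotype.

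Itgb1 (ENSMUSG00000025809, chromosome 8, 128685654 to 128733200, plus strand), the beta 1 chain shared by most receptors for matrix, was nearly level. It had 146, 144 and 173 CPM in wildtype and 149, 163 and 157 CPM in the labelled knockout. The libraries of both genotypes were mixed in order, and the fold was 1.01 (95% interval 0.871 to 1.18; edgeR, adjusted p = 0.957). Changes of Itgb1 smaller than this interval could not be told from none. The log2 fold change of Itgb1 was 0.017, but -0.023 without wildtype replicate 1 and -0.025 without wildtype replicate 2. It was 0.010 without replicate 1 of each genotype.

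Itgae (ENSMUSG00000005947, chromosome 11, 73090583 to 73147446, plus strand) encodes the alpha E chain, CD103, known from CD8 lineage thymocytes, tissue-resident T cells and a set of dendritic cells. It varied most among the 10 chains within wildtype, at 20.8, 9.67 and 12.5 CPM, a coefficient of variation of 40.4%. The labelled knockout libraries were close together at 15.1, 14.5 and 14.7 CPM, a coefficient of 2.09%. Wildtype replicate 1 stood above all others and the other wildtype libraries below, so the labelled knockout lay inside the wildtype range. The fold was 1.03 (95% interval 0.716 to 1.48; edgeR, adjusted p = 0.955). Ccr7, the chemokine receptor of mature thymocytes and a gene chosen here after its values were seen, had 41.3, 24.6 and 30.6 CPM in wildtype and 27.3, 30.4 and 26.7 CPM in the labelled knockout. Markers of the dendritic cells that carry CD103, named after their values were seen, had the same order in wildtype. Xcr1 had 3.09, 2.11 and 2.42 CPM and Clec9a 1.53, 1.04 and 1.32 CPM, each highest in replicate 1. Of the same list Zbtb46 and Cst3 were also highest there, but Flt3, Siglech, Cd209a and Bst2 were not. In the labelled knockout Xcr1 had 1.31, 2.30 and 1.84 CPM and Clec9a 0.611, 1.45 and 1.32 CPM, where Itgae was nearly level. The 8 dendritic cell genes together, most of whose level is Cst3, summed to 120.3, 122 and 114 CPM. The part of mature thymocytes or of dendritic cells in the level of Itgae was not tested. Without replicate 1 of each genotype the log2 fold change of Itgae went from 0.04 to 0.39 (edgeR, adjusted p = 0.129). The gene of the mitotic kinase Haspin lies within Itgae on the other strand but shares 0 exon bases with it.

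Alpha 5 and alpha 6 are beta 1 partners that bind fibronectin and laminin. Itga5 (ENSMUSG00000000555, chromosome 15, 103344286 to 103366763, minus strand) had 23.4, 27.7 and 29.5 CPM in wildtype and 25.4, 23.0 and 23.7 CPM in the labelled knockout, a fold of 0.894 (95% interval 0.752 to 1.06; edgeR, adjusted p = 0.543). Wildtype replicate 1 was within the range of the labelled knockout, and without replicate 1 of each genotype the log2 fold change of Itga5 was -0.29, against -0.16 (edgeR, adjusted p = 0.114). Itga6 (ENSMUSG00000027111, chromosome 2, 71745616 to 71858416, plus strand) had 60.7, 58.2 and 66.7 CPM in wildtype and 68.6, 67.9 and 58.7 CPM in the labelled knockout. Its groups overlapped over most of their range, with a fold of 1.05 (0.902 to 1.22; edgeR, adjusted p = 0.781).

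Alpha V and beta 3 form the vitronectin receptor, and beta 3 is also the platelet chain that pairs with alpha IIb. Itgav (ENSMUSG00000027087, chromosome 2, 83724397 to 83806916, plus strand) had 20.2, 22.1 and 24.9 CPM in wildtype and 20.1, 20.9 and 19.1 CPM in the labelled knockout. Wildtype replicate 1 lay among the labelled knockout libraries, and the fold was 0.894 (0.754 to 1.06; edgeR, adjusted p = 0.540). Without replicate 1 of each genotype the log2 fold change of Itgav was -0.23, against -0.16 (edgeR, adjusted p = 0.225). Itgb3 (ENSMUSG00000020689, chromosome 11, 104608000 to 104670476, plus strand) had 32.0, 21.6 and 31.8 CPM in wildtype and 32.5, 25.1 and 23.6 CPM in the labelled knockout. Each genotype had high and low libraries, with a fold of 0.950 (0.735 to 1.23; edgeR, adjusted p = 0.876). Platelet genes were near 0: 6 of the 7 were under 1 CPM in every library, Gp1bb and Gp6 had 0 counts in all, and the 7 summed to at most 1.42 CPM. Itga2b, the alpha IIb chain, was at 1.47 to 2.41 CPM.

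**Figure D2:**
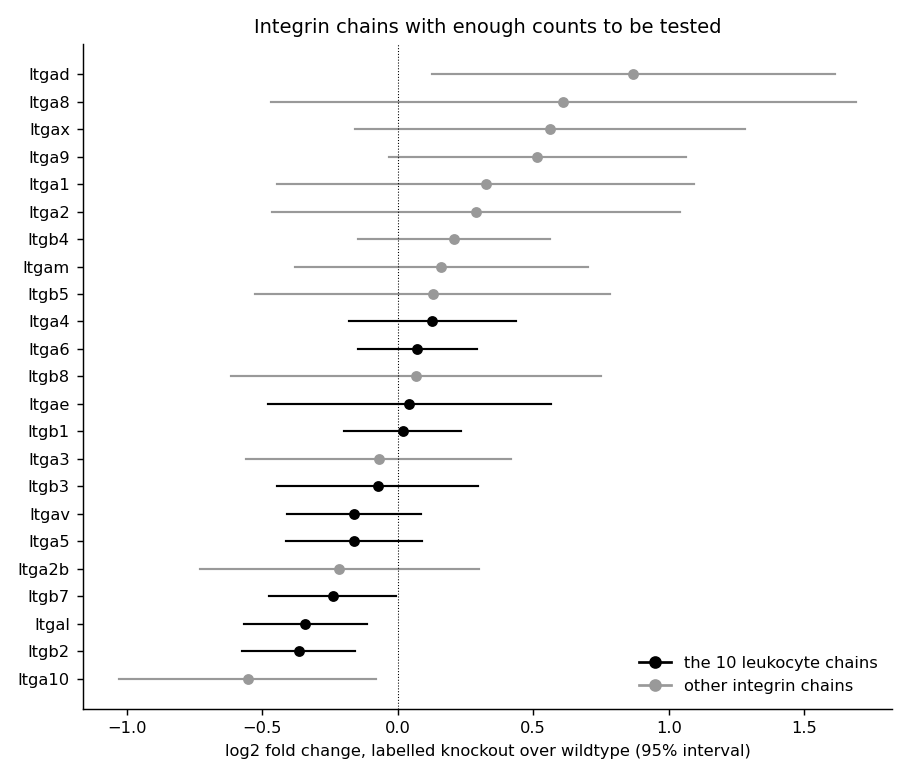
Log2 fold change, labelled knockout over wildtype, with 95% interval (edgeR) for the 10 chains (black) and the 13 other integrin chains that could be tested (grey), ordered by the fold. The intervals of Itgb2, Itgal and Itgb7 lie below 0, and those of the other 7 black chains cross it.

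Levels of different chains were compared per kilobase of exon, over the 6 libraries of both genotypes. Itgal (103 ± 14.5 RPKM) and Itgb2 (96.0 ± 13.7 RPKM) were the most abundant, and their ranges overlapped, with Itgal above Itgb2 in 5 of 6 libraries. Itgb1 followed at 38.0 ± 2.73 RPKM, Itgb7 at 19.5 ± 2.45, Itga4 at 13.9 ± 2.01 and Itga6 at 7.03 ± 0.530 RPKM, and the ranges of these neighbours did not overlap, though Itgb7 and Itga4 met in labelled knockout replicate 1 (both 16.5 RPKM). Itga5 (5.16 ± 0.537 RPKM), Itgb3 (4.71 ± 0.828) and Itgae (3.18 ± 0.802) overlapped from one to the next, and so did Itgae and Itgav (1.98 ± 0.193 RPKM). The place of Itgb7 before Itga4 depends on the gene length used. Over the longest annotated transcript they had 20.1 and 19.9 RPKM, and Itgb7 was above Itga4 in 3 of 6 libraries. The gap between Itga4 and Itga6 depends on the length too. Over the longest transcript their ranges overlapped (14.9 to 23.6 and 13.5 to 15.9 RPKM), with Itga4 above Itga6 in 6 of 6 libraries.

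**Figure D3:**
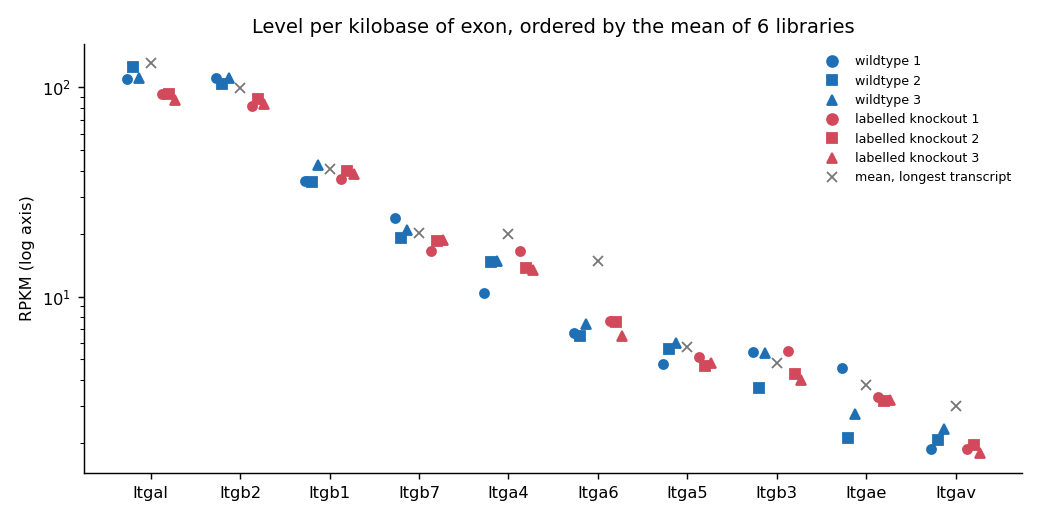
RPKM per library (log axis) of the 10 chains over the union of their exons, ordered by the mean, with wildtype in blue and labelled knockout in red. Grey crosses are means over the longest transcript, which lift Itga6 from 7.03 to 14.7 RPKM and Itga4 from 13.9 to 19.9 RPKM.

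Partner chains were set against each other within each library, a ratio that no scaling of the library changes. There were 8 pairs. With 3 libraries a side, a two-sided exact permutation test cannot go below 0.1, so no pair could pass. Over the exon union, the ratio of Itgal to Itgb2 was 0.996, 1.21 and 1.01 in wildtype and 1.15, 1.06 and 1.05 in the labelled knockout. The size of such a ratio depends on the gene length, and over the longest transcript it was 1.22 to 1.48, with Itgal above Itgb2 in 6 of 6 libraries. The difference between genotypes does not depend on it. Although both chains had lower means in the labelled knockout, their log2 ratio differed by 0.03 ± 0.10 (SE; exact permutation p = 0.7, adjusted over the pairs 0.8).

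The ratio of Itga4 to Itgb7 was 0.441, 0.769 and 0.715 in wildtype and 0.9998, 0.738 and 0.719 in the labelled knockout. Replicate 1 held the lowest and the highest of these 6 ratios, and the other 4 lay close together. The log2 ratio differed by 0.38 ± 0.29 (SE; exact permutation p = 0.4, adjusted 0.8), and by -0.03 without replicate 1 of each genotype. Itga4 to Itgb1 was 0.293, 0.412 and 0.349 in wildtype and 0.452, 0.342 and 0.348 in the labelled knockout, a log2 difference of 0.12 ± 0.19 (exact permutation p = 0.7, adjusted 0.8). Itgae to Itgb7 was 0.192, 0.112 and 0.132 in wildtype and 0.200, 0.171 and 0.172 in the labelled knockout (log2 difference 0.35 ± 0.24; exact permutation p = 0.3, adjusted 0.8). Wildtype replicates 2 and 3 lay below every labelled knockout library. With 1 library left out the log2 difference ranged from 0.18 to 0.58, the highest without wildtype replicate 1. Of the summed RPKM of both beta 7 partners, Itga4 held 69.7% to 87.3% in each library.

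For beta 1, Itga4 held 40.6% to 50.3%, Itga6 20.9% to 26.2%, Itga5 15.6% to 18.5% and Itgav 5.72% to 7.31% of the summed RPKM of its 12 alpha partners. That sum was 0.720 to 0.898 of the Itgb1 level over the exon union, but 1.03 to 1.28 over the longest transcript. Over the longest transcript Itga4 held 38.0% to 47.2% and Itga6 29.3% to 35.7% of it. The beta 2 partners summed to 1.02 to 1.23 of Itgb2 over the exon union and to 1.24 to 1.4996 over the longest transcript. Itgav to Itgb1 was the pair whose genotypes did not overlap, at 0.0526, 0.0583 and 0.0548 in wildtype and 0.0514, 0.0488 and 0.0463 in the labelled knockout. Its log2 difference was -0.18 ± 0.06 (SE; exact permutation p = 0.1, the smallest possible, adjusted 0.8). Itga5 to Itgb1, Itga6 to Itgb1 and Itgav to Itgb3 differed by -0.18, 0.05 and -0.09 on the log2 scale (exact permutation p = 0.2, 0.6 and 0.9).

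**Figure D4:**
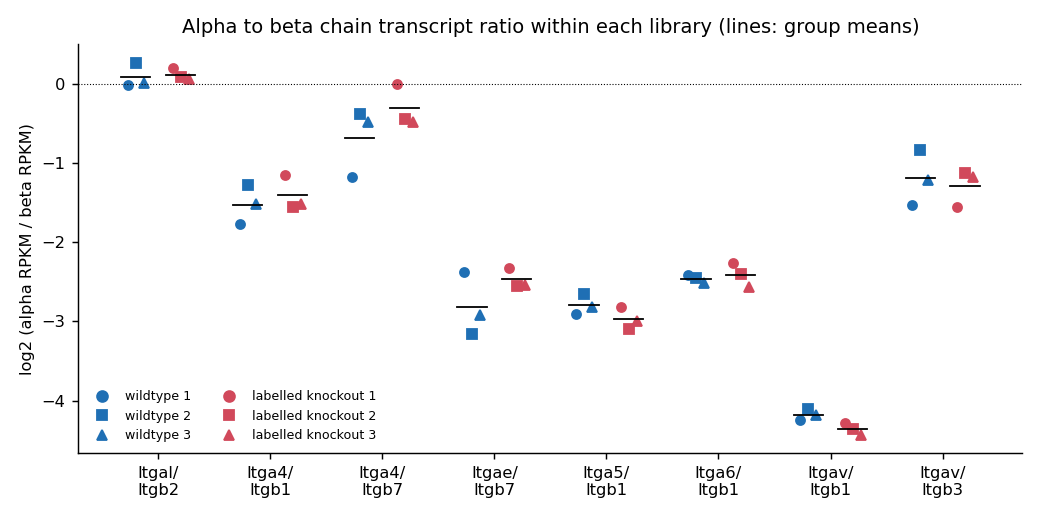
Log2 ratio of alpha to beta chain RPKM within each library for 8 pairs, with lines at the group means; 0 means equal RPKM. RPKM is over the exon union; over the longest transcript Itgal/Itgb2 lies above 0 in all 6 libraries. At each pair the 6 libraries are shown, and replicate 1 (circles) holds the lowest wildtype and the highest labelled knockout value of Itga4/Itgb7.

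The other integrin chains were at low levels. Of 16 such chains 13 could be tested, none passed (edgeR), and at an unadjusted p under 0.05 Itgad was higher (8.01% of all tested genes were) and Itga10 lower (6.6%). Their median log2 fold change was 0.21, but 0.36 without replicate 1 of each genotype, 0.31 without labelled knockout replicate 1 and 0.05 without its replicate 3. It was 0.11 without wildtype replicate 2 and 0.13 without wildtype replicate 3. Itga10, a collagen-binding alpha chain, had 4.80, 7.27 and 6.08 CPM in wildtype and 4.63, 4.62 and 3.10 CPM in the labelled knockout, a fold of 0.681 (edgeR, adjusted p = 0.277). Itga9, another beta 1 partner, had 1.92 ± 0.328 and 2.74 ± 0.672 CPM, Itgb4, the laminin-binding beta chain of epithelium, 6.75 ± 1.15 and 7.79 ± 0.511 CPM, and Itga8 0.133 ± 0.0505 and 0.205 ± 0.0336 CPM.

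Ligands of these receptors were read from a list of 18 genes, 11 of them tested and none past edgeR's threshold. Their median log2 fold change of -0.05 had no stable sign: with 1 library left out it ranged from -0.19 (without labelled knockout replicate 3) to 0.31 (without labelled knockout replicate 1). It was 0.21 without replicate 1 of each genotype. Icam1 and Icam2, the ligands of LFA-1, had 19.8 ± 1.42 and 17.02 ± 2.71 CPM, and 71.2 ± 8.12 and 63.4 ± 4.15 CPM. Vcam1, the ligand of alpha 4 beta 1, had 10.6, 8.27 and 8.27 CPM in wildtype and 6.11, 13.3 and 16.2 CPM in the labelled knockout, and was called higher without replicate 1 of each genotype (edgeR, adjusted p = 0.0308). Madcam1, the gut ligand of alpha 4 beta 7, had at most 0.0503 CPM in any library. Cdh1, the E-cadherin bound by alpha E beta 7, had 4.31, 3.22 and 3.97 CPM in wildtype and 4.34, 7.79 and 8.997 CPM in the labelled knockout. All labelled knockout values of Cdh1 were higher, replicate 1 only just, with a fold of 1.84 (edgeR, adjusted p = 0.178; DESeq2, adjusted p = 0.0194). Without labelled knockout replicate 1, edgeR called Cdh1 higher (log2 fold change 1.13, adjusted p = 0.0360), as it did without replicate 1 of each genotype (1.22, adjusted p = 0.0196). Lamc1, the gamma 1 chain of laminins, had 28.7, 35.5 and 32.5 CPM in wildtype and 28.0, 21.2 and 19.4 CPM in the labelled knockout (fold 0.709; edgeR, adjusted p = 0.179; DESeq2, adjusted p = 0.0393). Without replicate 1 of each genotype edgeR called Lamc1 lower (log2 fold change -0.74, adjusted p = 0.0196). In that fit 3.98% of all 19127 tested genes passed, and DESeq2 called 4.32% of its 13973 genes. The fit without labelled knockout replicate 1 called 15 genes higher. Fn1, fibronectin, reached 16.5 CPM in labelled knockout replicate 3 and 1.29 to 3.98 CPM in the other libraries. Lamb2 had 1.46 ± 0.489 and 2.21 ± 0.615 CPM, and Tgfb1, whose latent form binds alpha V integrins, 126 ± 4.06 and 115 ± 9.13 CPM.

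Adaptors that bind integrin tails or control their activation mostly had lower fitted levels in the labelled knockout. Of 16 genes 15 were tested and none passed edgeR's test over all genes. There were 14 of the 15 fitted lower (48.8% of all tested genes were), and 3 had an unadjusted p under 0.05 (6.6% of all). Lower with no overlap were 9, beside 9.38% of all tested genes and 12.8% of those with a mean of at least 10 CPM. The median log2 fold change was -0.13 (-0.16 to -0.09 with 1 library left out, -0.07 without replicate 1 of each genotype). Dok2, an adaptor whose family binds beta tails, had 122 ± 6.46 and 89.3 ± 8.95 CPM, a fold of 0.733 (edgeR, adjusted p = 0.139; DESeq2, adjusted p = 0.00573). Sharpin, an inhibitor of beta 1 activation, had 81.3 ± 5.38 and 62.3 ± 5.26 CPM, a fold of 0.767 (edgeR, adjusted p = 0.152; DESeq2, adjusted p = 0.0220). Of the 13973 genes that DESeq2 gave an adjusted p, 1.57% were called lower. Fermt3, the kindlin of blood cells, had 332 ± 2.41 and 285 ± 13.9 CPM and Tln1, talin, 730.4 ± 29.3 and 632 ± 15.3 CPM. Flna had 696 ± 34.1 and 612 ± 36.5 CPM and Rassf5, a Rap1 effector, 169 ± 8.18 and 151 ± 11.6 CPM. These values stood beside those of Itgal and Itgb2 in the same libraries, and a relation between them was not tested.

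**Figure D5:**
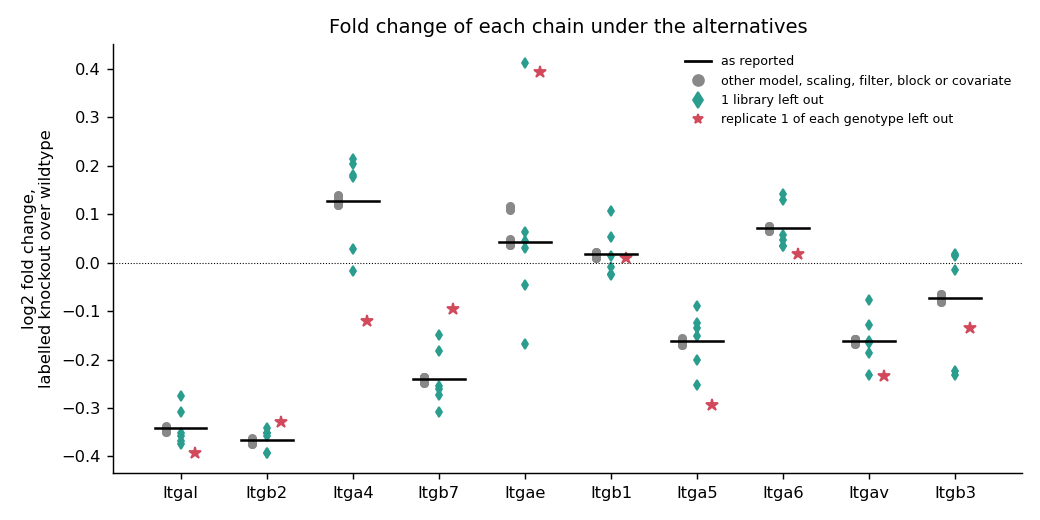
Log2 fold change of each chain as reported (black line) and with other models, scalings, filters, a block or a covariate (grey), with 1 library left out (green) or with replicate 1 of each genotype left out (red stars). Itgal and Itgb2 were lower under each setting drawn, at most at -0.276 and -0.33, whereas Itga4 and Itgae move with replicate 1.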

How the data were processed

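The authors deposited 1 table of raw counts by Ensembl gene for the 6 libraries, unnormalised, per the file headers. The library kit marks strand, per the labels' protocols, and the submitters' processing notes list STAR 2.5.4b, featureCounts and GRCm38. The sources used here do not say which annotation or strand setting was used or how reads with several matches were counted, so antisense overlap cannot be told apart.

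All 55536 identifiers matched GENCODE M21, which gave symbols, positions and exon lengths. Genotypes were compared over the 18690 genes that passed filterByExpr with edgeR 4.0.16 (TMM, glmQLFit with robust = TRUE, glmQLFTest, R 4.3.3) and Benjamini-Hochberg adjustment. The common biological coefficient of variation was 18.7%. Counts of the same 18690 genes were simulated for this comparison, with changes put into a random subset of those averaging above 1 CPM. The simulated spread followed the trend over all genes and left out any spread particular to single genes or libraries. In this setting the test recovered 34.3% of 1.5-fold, 79.1% of 2-fold and 100% of 4-fold changes, and smaller changes were not simulated. Each standard error is the absolute log2 fold change divided by the root of F. RPKM is CPM per kilobase of the exon union. Partner ratios were tested with exact permutation tests (scipy 1.17.1). The alternatives were DESeq2 1.42.0, limma-voom (limma 3.58.1), 2 scalings, 2 filters, a replicate block, the omission of libraries and another gene length. A covariate for replicate 1 was chosen after seeing the data.

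The chains, lists and tests were chosen with earlier results of these data known. All 10 chains were named, and of each other list up to 6 tested genes of smallest unadjusted p, with main partners and ligands in any case. The labels do not give litters, so p-values measure the spread between these mice.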

Additional observations from a re-analysis of the deposited data

How the results depend on the processing

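Over the 15 alternative fits Itgal, Itgb2, Itgb7, Itgav, Itga5 and Itga6 kept the sign of their log2 fold change. DESeq2 called 2 chains lower, Itgal at -0.35 and Itgb2 at -0.37 (adjusted p = 0.0217 and 0.00667). Over the other 14 fits the adjusted p was 0.0694 to 0.692 for Itgal and 0.0577 to 0.634 for Itgb2. Without replicate 1 of each genotype Itga4 turned to -0.12. With 1 library left out at a time, the ranges of the chains whose sign turned were -0.018 to 0.21 for Itga4 (negative without wildtype replicate 1), -0.025 to 0.11 for Itgb1, -0.17 to 0.41 for Itgae and -0.23 to 0.018 for Itgb3. The cause was not tested.

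The number of chains lower with no overlap was 3, was 3 to 5 with 1 library left out (5 without wildtype replicate 1, where 19.1% of all genes were) and was 6 without replicate 1 of each genotype, where 29.0% of all genes were. The number higher with no overlap was 0, 0 to 1 with 1 library left out, and 1 without replicate 1 of each genotype (31.7% of all genes). Log2 ratio differences that turned sign without replicate 1 of each genotype were -0.063 for Itgal/Itgb2, -0.14 for Itga4/Itgb1 and -0.026 for Itga4/Itgb7. With 1 library left out, Itgal/Itgb2 ranged from -0.022 to 0.12, Itga4/Itgb1 from -0.011 to 0.24, Itga6/Itgb1 from -0.024 to 0.13 and Itgav/Itgb3 from -0.26 to 0.089.

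Over the longest transcript 5 levels moved by more than 1 SD: Itgal to 129.9, Itga4 to 19.9, Itgav to 3.01, Itga6 to 14.7 and Itga5 to 5.77 RPKM.

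Over all genes, 3 were called higher and 14 lower. These numbers were 385 and 219 by DESeq2, 531 and 309 without the low-count filter, 1 and 9 with a mean of at least 1 CPM, and 394 and 368 without replicate 1 of each genotype. With 1 library left out they ranged from 1 to 15 higher (15 without labelled knockout replicate 1, 12 without its replicate 2, 1 without wildtype replicate 2 or 3) and 7 to 18 lower (7 and 9 without wildtype replicates 2 and 1). With the replicate number as a block 1 was called higher and 8 lower, and no chain was. Whether the replicate numbers pair the mice is not given. Deviations of same-numbered libraries correlated at -0.10, 0.07 and -0.12 for replicates 1 to 3, which cannot exclude a pairing. In both genotypes replicate 1 was the library with Xist. Without the low-count filter edgeR also called Cdh1 higher and Lamc1, Dok2 and Sharpin lower (adjusted p = 0.00147, 0.00471, 0.00431 and 0.0261). The median of the ligands was 0.25 without that filter, 0.13 with a mean of at least 1 CPM and 0.059 with the replicate block.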

Other observations

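Membrane proteins that associate with integrins were also listed. All 10 were tested and none passed edgeR's test over all genes, with 0 at an unadjusted p under 0.05 and a median log2 fold change of -0.09. The median was 0.019 without wildtype replicate 1, 0.056 without labelled knockout replicate 1 and 0.066 without replicate 1 of each genotype. Thy1, a surface glycoprotein of thymocytes, had 1924, 1908 and 1992 CPM in wildtype and 1819, 1674 and 1758 CPM in the labelled knockout, with no overlap and a fold of 0.902 (edgeR, adjusted p = 0.543). Cd47, which associates with beta 3 integrins, had 218 ± 18.7 and 232 ± 15.1 CPM. The tetraspanins Cd9 and Cd81 had 4.53 ± 0.568 and 5.61 ± 1.27 CPM, and 63.6 ± 3.88 and 59.3 ± 9.03 CPM. Cd226, an adhesion receptor that associates with LFA-1, had 14.9 ± 2.14 and 13.3 ± 1.73 CPM.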
